A study of Mus musculus with 7 samples.

Results

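The insulin-like growth factor (IGF) genes described here are 10 genes chosen by name from the 55450 genes listed in the counts: the ligands Igf1 and Igf2, the receptors Igf1r and Igf2r, and the binding proteins Igfbp2, Igfbp3, Igfbp4, Igfbp5, Igfbp6 and Igfbp7. All 10 were present in the table under one Ensembl identifier each, and 9 of them were expressed highly enough to be tested. Dorsal skin came from male C57BL/6 mice aged 24 months, with 1 library per mouse. The senolytic ABT-263 (Navitoclax), an inhibitor of anti-apoptotic Bcl-2 family proteins, was applied topically at 5 μM for 5 days in 3 mice (476, 477 and 478). The other 4 mice (480, 481, 482 and 483) received the vehicle DMSO alone. In both groups the back was clipped, treated with hair removal lotion, cleansed with ethanol and covered with a semi-occlusive dressing, so no library represents undisturbed skin, and RNA was taken from whole skin homogenate.

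IGF1 and IGF2 are secreted growth factors of the insulin family that signal through the IGF1 receptor, a tyrosine kinase coupled to the PI3K-AKT and MAPK pathways. The IGF2 receptor, also the cation-independent mannose 6-phosphate receptor, takes up IGF2 for degradation and sorts lysosomal enzymes. IGF binding proteins hold the ligands outside the cell, where they can prolong the life of the ligands or keep them from the receptor, and proteases that cleave the binding proteins release the ligands again. In skin, fibroblasts of the dermis are a source of IGF1 that acts on keratinocytes, and several binding proteins belong to the senescence-associated secretory phenotype. The comparison asked how ligands, receptors and carriers stood relative to each other after ABT-263.

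Igfbp7 was higher and Igfbp2 lower after ABT-263, and these were the members that passed the test, 1 in each direction of 9 tested. Their promoters are shown to identify the genes behind these results by sequence. Both windows are from RefSeq on GRCm38.p6 and run 5′ to 3′ on the strand of the gene, from 250 bases before to 50 bases after its start. Capitals mark each match to the GC box letters GGGCGG or to the reverse complement CCGCCC. Igfbp2 has a pair of windows in the table, and the first is shown. The Igfbp7 window lies at chr5:77407996-77408295 on the minus strand and the Igfbp2 window at chr1:72824230-72824529 on the plus strand.
Igfbp7: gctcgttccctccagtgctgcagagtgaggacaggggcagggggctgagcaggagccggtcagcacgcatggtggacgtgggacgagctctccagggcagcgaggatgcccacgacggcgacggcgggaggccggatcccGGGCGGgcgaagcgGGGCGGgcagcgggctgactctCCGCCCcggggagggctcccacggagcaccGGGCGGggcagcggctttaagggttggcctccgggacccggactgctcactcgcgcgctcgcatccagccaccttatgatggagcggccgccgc
Igfbp2: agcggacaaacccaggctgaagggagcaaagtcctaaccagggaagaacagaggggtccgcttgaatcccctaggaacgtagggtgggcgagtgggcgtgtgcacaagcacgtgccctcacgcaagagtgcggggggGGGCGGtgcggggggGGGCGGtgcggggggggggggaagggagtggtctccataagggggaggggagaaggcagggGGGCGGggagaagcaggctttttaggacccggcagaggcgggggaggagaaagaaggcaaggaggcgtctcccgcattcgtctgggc
The Igfbp7 window held 4 GC box matches and the Igfbp2 window 3. Such a match was present in 35.7% of the 32851 promoter windows of the RefSeq table. Neither of the printed windows held the TATA box letters TATAAA, the forkhead letters GTAAACA or the AP-1 letters TGACTCA on either strand, which were present in 13.6%, 3.65% and 5.2% of all windows. Across the 14 windows of the 10 members, GC boxes were also found for Igf1r (2), Igf2r (3) and a pair of the 4 windows of Igf2, TATAAA for Igfbp4 and Igfbp6, and TGACTCA in the other Igfbp2 window. These matches describe letters, and no binding was measured.

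Expression is given in CPM, read pairs scaled to a common library size by TMM normalization, and SE is the standard error of a log2 fold change. The test was edgeR's quasi-likelihood test over 17959 genes, two-sided, with Benjamini-Hochberg adjustment over all of them and a threshold of 0.05. At that threshold 24.2% of all genes tested differed between treatments, 12.4% higher and 11.7% lower after ABT-263. The 2 of 9 members called stand close to that share, so the number of members called is not a result about the family. Likewise, the groups did not overlap in CPM for 2 of the 9 members, 1 higher and 1 lower, whereas they did not overlap for 37.1% of all genes tested (18.7% higher and 18.4% lower). The median log2 fold change of the 9 members was -0.40, beside 0.0022 over all genes tested. Of these members, 7 had a negative and 2 a positive value. In bulk tissue, fewer cells of a type and less RNA per cell cannot be told apart, and this holds for every value below.

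Total counts lay between 20344364 and 26824123 read pairs after DMSO and between 27325963 and 43562330 after ABT-263, so every ABT-263 library was the larger. Summed basal keratinocyte markers lay between 13873 and 35946 CPM and suprabasal ones between 7333 and 42837 CPM in every library, in keeping with the skin label. Between treatments, 1 basal keratinocyte marker was higher and 1 lower of 7, and 0 of 7 suprabasal markers, 0 of 9 hair follicle markers, 0 of 5 T cell markers and 0 of 6 adipocyte markers passed. Endothelial markers rose in 7 of 8, macrophage markers in 5 of 8, neutrophil markers in 3 of 5, fibroblast markers in 3 of 7, and pericyte and smooth muscle markers in 1 of 7. Skeletal muscle markers fell in 2 of 7 and sebaceous gland markers in 1 of 4. The libraries also held much muscle RNA, with summed muscle markers between 33763 and 68834 CPM after DMSO and between 26455 and 35486 CPM after ABT-263. The summed hair follicle markers reached 2671 CPM in DMSO-treated mouse 481, against 37.1 to 45.1 CPM in the other DMSO-treated mice, so that mouse stood apart in hair follicle transcripts. ABT-263-treated mouse 478 stood apart too, at 478 CPM, against 5.33 and 12.6 CPM in mice 476 and 477. No endothelial, macrophage, fibroblast or muscle marker was at 0 counts in any library, whereas Krt25, Krt31, Ly6g and Fabp9 were in at least 1.

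**Figure D1:**
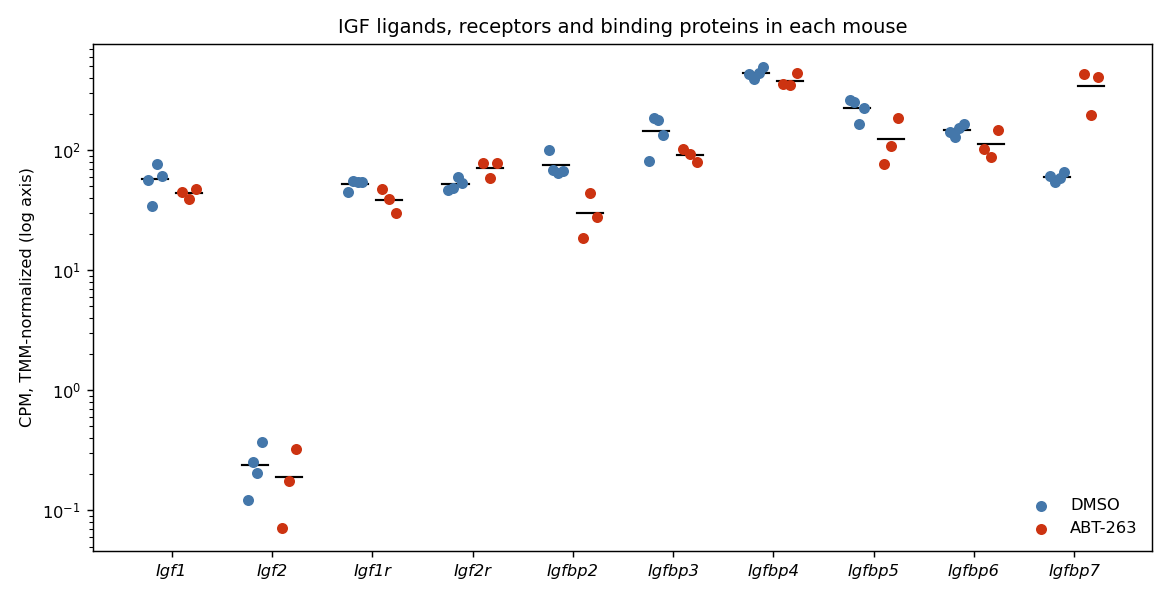
CPM of each member on a log axis, with 1 point per mouse (blue DMSO, n = 4, red ABT-263, n = 3) and a bar at the group mean. The groups of Igfbp7 and Igfbp2 do not overlap, and Igf2 lies below 0.4 CPM in every mouse.

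Igf1, on chromosome 10 from 87858265 to 87937042 (plus strand), was the ligand expressed in this skin. It was at 56.8, 34.4, 76.6 and 61.4 CPM in DMSO-treated mice 480 to 483 and at 44.6, 39.5 and 47.6 CPM in ABT-263-treated mice 476 to 478. The groups overlapped, because mouse 481 had the lowest value of all and the other DMSO-treated mice the highest. The log2 fold change was -0.38 (SE 0.24, 95% interval -0.95 to 0.18, edgeR adjusted p = 0.275), an interval that holds 0. Markers of fibroblasts and macrophages, which can supply Igf1, lay higher after ABT-263. Fibroblast markers summed to between 4011 and 5652 CPM in the DMSO-treated mice and to between 6360 and 9016 CPM in the others. Macrophage markers summed to between 363 and 1086 CPM and to between 1217 and 3206 CPM. Not every list rose: skeletal muscle markers, with 7 of 7 fitted values negative and 2 past the test, summed to between 33763 and 68834 CPM and to between 26455 and 35486 CPM. The part of any of these cells in the level of Igf1 was not tested.

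Igf2, the growth factor of fetal tissue, was close to absent. Its count was 3, 6, 4 and 9 read pairs after DMSO and 2, 7 and 15 after ABT-263, at most 0.370 CPM in any mouse. The groups overlapped (exact permutation test on log2(CPM + 0.5), two-sided, p = 0.629), and the gene was left out of the edgeR test for its low counts. On GENCODE M21, 62.8% of the exon bases of Igf2 (chromosome 7, 142650766 to 142666816, minus strand) are shared with the gene Gm49394 on the same strand, where reads cannot be assigned to either gene alone. Gm49394 itself had 0 counts in all 7 libraries. The antisense transcript Igf2os was at 0 to 13 read pairs. H19, the imprinted noncoding RNA next to Igf2, was at 185 to 463 CPM after DMSO and 306 to 972 CPM after ABT-263, and did not pass the test (log2 fold change 1.04, SE 0.43, edgeR adjusted p = 0.112). H19 passed in only 1 of the 7 fits that left out a mouse, that without ABT-263-treated mouse 477 (log2 fold change 1.40, edgeR adjusted p = 0.0341). In the other fits its adjusted p from edgeR reached 0.355.

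The receptors had fitted changes of opposite sign, and neither passed. Igf1r, on chromosome 7 from 67952827 to 68233668 (plus strand), was at 45.1, 55.4, 54.5 and 53.9 CPM after DMSO and at 47.1, 39.2 and 29.7 CPM after ABT-263. Mouse 476 lay above the lowest DMSO-treated mouse, so the groups overlapped, and the log2 fold change was -0.43 (SE 0.17, edgeR adjusted p = 0.0966). Igf2r, on chromosome 17 from 12682406 to 12769664 (minus strand), was at 46.8, 48.2, 59.6 and 52.9 CPM after DMSO and at 78.0, 58.2 and 78.2 CPM after ABT-263. Its log2 fold change was 0.46 (SE 0.15, edgeR adjusted p = 0.0567), with mouse 477 just below the highest DMSO-treated mouse. Igf2r passed in only 1 of the 7 fits that left out a mouse, that without ABT-263-treated mouse 477 (log2 fold change 0.62, edgeR adjusted p = 0.0239). In the other fits its adjusted p from edgeR reached 0.164.

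Igfbp7 encodes a secreted protein that binds IGFs only weakly and is abundant around blood vessels. The gene lies on chromosome 5 from 77349240 to 77408041 (minus strand). After DMSO it was at 60.5, 54.1, 58.7 and 66.1 CPM, and after ABT-263 at 427, 195 and 404 CPM in mice 476, 477 and 478. Every ABT-263-treated mouse was above every DMSO-treated mouse, and mouse 477 was the lowest of the treated mice. The log2 fold change was 2.51 (SE 0.26, 95% interval 1.91 to 3.12, edgeR adjusted p = 0.00578), a fold change of 5.71, and the exact permutation test gave p = 0.0286, the smallest that 4 mice against 3 allow. Leaving out single mice moved the estimate between 2.33 and 2.82, and the gene passed in 7 of 7 such fits. Exons of Polr2b on the opposite strand cover 7.03% of the Igfbp7 exon bases, and the authors counted pairs by strand.

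Endothelial transcripts rose in the same mice. Endothelial markers summed to between 187 and 425 CPM in the DMSO-treated mice and to between 585 and 727 CPM in the ABT-263-treated mice. Cdh5, the cadherin of endothelial junctions, had a log2 fold change of 1.92 (edgeR adjusted p = 0.00622). Dividing Igfbp7 by that sum, a ratio chosen after the values were seen, gave 0.142, 0.289, 0.204 and 0.222 in the DMSO-treated mice. It gave 0.588, 0.333 and 0.648 in the ABT-263-treated mice. Every ABT-263-treated mouse lay above every DMSO-treated mouse in this ratio, and the nearest mice of either treatment, 481 and 477, differed little. Over all genes tested, the groups did not overlap in CPM for 37.1%. Endothelial markers moved unevenly, from a log2 fold change of 0.30 for Cldn5 (edgeR adjusted p = 0.437) to 1.92 for Cdh5, so the ratio depends on which markers are summed, and the part of endothelial content in the rise of Igfbp7 was not tested. 

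Igfbp2, a binding protein that favours IGF2, lies on chromosome 1 from 72824503 to 72852474 (plus strand). Its levels were 101, 67.8, 64.8 and 67.2 CPM after DMSO and 18.6, 44.3 and 27.7 CPM after ABT-263. The groups did not overlap, and mouse 480 stood above the other DMSO-treated mice. The gene fell by 1.32 on the log2 scale (SE 0.30, 95% interval -2.02 to -0.61, edgeR adjusted p = 0.0215), to 0.402 of the DMSO level, with p = 0.0286 in the exact permutation test. Without ABT-263-treated mouse 478 the call was lost (log2 fold change -1.25, edgeR adjusted p = 0.0761), and in the other 6 fits that left out a mouse it was kept. Sebaceous gland markers, of which 1 of 4 passed, summed to between 171 and 298 CPM after DMSO and between 71.6 and 147 CPM after ABT-263. Hair follicle markers, with 9 of 9 fitted values negative and 0 past the test, summed to between 37.1 and 2671 CPM and between 5.33 and 478 CPM. Skeletal muscle markers, with 7 of 7 negative and 2 past the test, summed to between 33763 and 68834 CPM and between 26455 and 35486 CPM. The hair follicle sum of 2671 CPM was that of mouse 481, against 37.1 to 45.1 CPM in the other DMSO-treated mice. That of 478 CPM was of ABT-263-treated mouse 478, against 5.33 and 12.6 CPM in mice 476 and 477. Other lists went the other way, with 3 of 7 fibroblast and 7 of 8 endothelial markers higher. The part of any of these cells in the fall of Igfbp2 was not tested.

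The other 4 binding proteins did not pass, and each had a negative fitted value. Igfbp5, a binding protein that attaches to extracellular matrix, lies 5457 bases from Igfbp2 on chromosome 1 (72857932 to 72874884, minus strand), and the genes converge. It was at 261, 252, 164 and 224 CPM after DMSO and at 76.3, 108 and 185 CPM after ABT-263. Only mouse 478 overlapped the DMSO-treated mice, and the log2 fold change was -0.87 (SE 0.31, edgeR adjusted p = 0.0705). Without mouse 478 it was -1.28 (edgeR adjusted p = 0.0355), the only 1 of the 7 fits leaving out a mouse in which Igfbp5 passed. Igfbp5 also passed with trends on gene length and GC content removed (edgeR adjusted p = 0.0394) and with the DESeq2 Wald test (adjusted p = 0.0395). The DESeq2 test made more false calls than its threshold allows on simulated data, in which fewer genes were changed than were called here.

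Igfbp3, the main carrier of IGFs in blood, lies on chromosome 11 from 7206086 to 7213923 (minus strand). Its levels were 80.7, 184, 179 and 133 CPM after DMSO and 103, 92.6 and 79.9 CPM after ABT-263. DMSO-treated mouse 480 lay among the ABT-263-treated mice and the other DMSO-treated mice above them. The log2 fold change was -0.65 (SE 0.28, edgeR adjusted p = 0.118), and without mouse 480 it was -0.85 (edgeR adjusted p = 0.0185). Igfbp3 passed in only that 1 of the 7 fits leaving out a mouse, and in the others its adjusted p from edgeR reached 0.289. Igfbp4, which holds IGFs away from the receptor, lies on chromosome 11 from 99041244 to 99054392 (plus strand). It was at 427, 389.6, 441 and 492 CPM after DMSO and at 354, 347 and 436 CPM after ABT-263, with a log2 fold change of -0.21 (95% interval -0.57 to 0.16, edgeR adjusted p = 0.363). Igfbp6, which prefers IGF2, lies on chromosome 15 from 102144362 to 102149511 (plus strand). It was at 143, 129, 153 and 164 CPM after DMSO and at 101, 87.7 and 147 CPM after ABT-263, with a log2 fold change of -0.40 (95% interval -0.84 to 0.05, edgeR adjusted p = 0.165). In both genes only mouse 478 lay within the DMSO range.

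**Figure D2:**
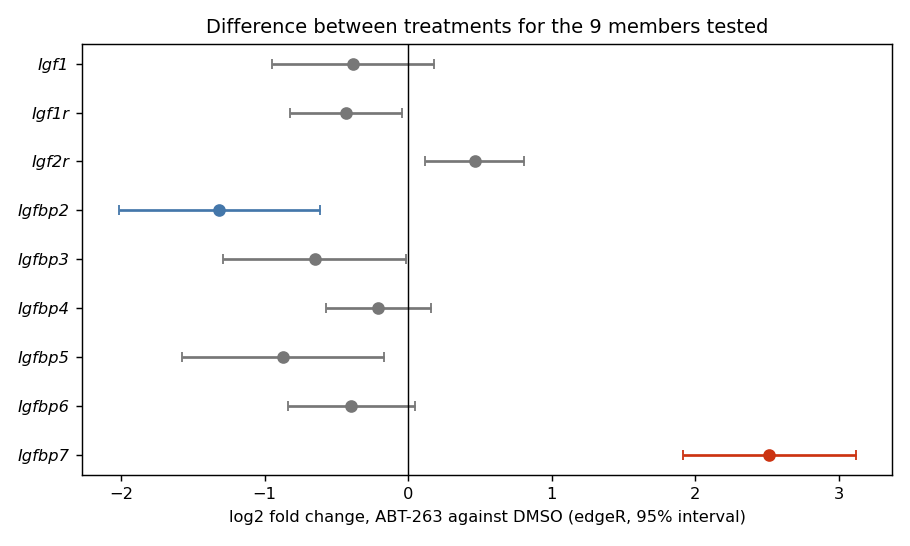
Log2 fold change of the 9 tested members, ABT-263 against DMSO, with the 95% interval of the edgeR fit (red higher, blue lower, grey not past an adjusted p of 0.05). Igfbp7 at 2.51 and Igfbp2 at -1.32 passed. Of the others, the intervals of Igf1, Igfbp4 and Igfbp6 hold 0. Those of Igf1r, Igf2r, Igfbp3 and Igfbp5 do not, but these genes did not pass after adjustment over all genes tested.

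To compare levels between genes, counts were divided by merged exon length and scaled to the same sum within each library (TPM). After DMSO the order by mean TPM was Igfbp6 (268 ± 30.8, SD, n = 4), Igfbp4 (200.2 ± 22.7), Igfbp7 (99.96 ± 9.48), Igfbp3 (95.2 ± 37.9), Igfbp2 (81.4 ± 12.1), Igfbp5 (75.9 ± 16.5), Igf1 (11.6 ± 3.28), Igf2r (11.3 ± 1.64), Igf1r (6.33 ± 1.12) and Igf2 (0.0856 ± 0.0401). Over only the Igf2 exon bases that are not shared with Gm49394, Igf2 was at 0.227 ± 0.106 TPM after DMSO and 0.207 ± 0.151 TPM after ABT-263, still the lowest of the family. Igfbp7, Igfbp3, Igfbp2 and Igfbp5 were neighbours within their spread, as were Igf1 and Igf2r. After ABT-263, Igfbp7 led with 653 ± 266 TPM (SD, n = 3), followed by Igfbp6 (233 ± 83.0) and Igfbp4 (197 ± 41.0), which lay within their spread of each other. The order then was Igfbp3 (66.6 ± 5.49), Igfbp5 (47.7 ± 25.2), Igfbp2 (37.0 ± 14.6), Igf2r (17.6 ± 3.76), Igf1 (10.2 ± 1.66), Igf1r (5.21 ± 0.940) and Igf2 (0.0778 ± 0.0567).

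The make-up of the binding protein transcripts shifted towards Igfbp7. Its share of the summed TPM of the 6 binding proteins was 12.5%, 11.6%, 12.0% and 12.7% after DMSO and 60.9%, 41.3% and 52.5% after ABT-263. Igfbp6 had the largest share after DMSO, 30.0% to 34.4%, and 15.7% to 20.8% after ABT-263. The share of Igfbp4 was 22.8% to 25.9% and 13.8% to 20.2%, that of Igfbp2 8.46% to 13.7% and 1.73% to 6.15%, and that of Igfbp5 6.73% to 10.9% and 2.19% to 4.83%. The share of Igfbp3 overlapped between treatments, at 6.46% to 15.2% and 4.01% to 7.59%. In CPM, with no division by length, the Igfbp7 share was 5.02% to 5.77% after DMSO and 22.3% to 39.6% after ABT-263, a difference of means of 25.6 percentage points rather than 39.4. A larger share of one gene lowers the others by construction. With Igfbp7 left out, the binding proteins summed to 623 to 774 TPM after DMSO and 493 to 748 TPM after ABT-263, ranges that overlap. These shares are scores over the chosen genes and were not tested.

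**Figure D3:**
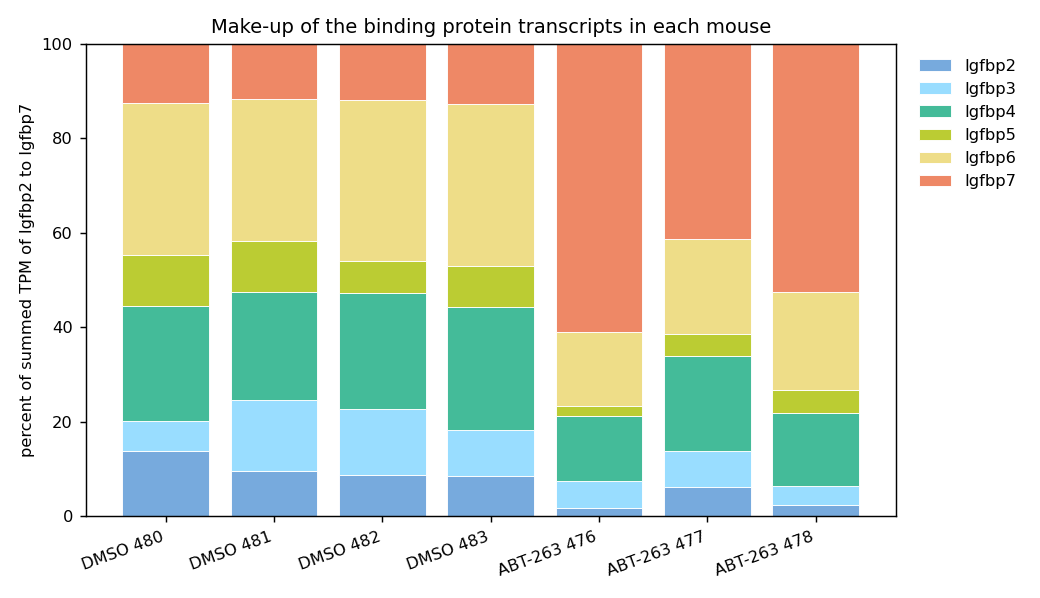
Percent of the summed TPM of Igfbp2 to Igfbp7 taken by each gene, 1 stacked bar per mouse. Igfbp7 makes up 11.6% to 12.7% in the 4 DMSO-treated mice and 41.3% to 60.9% in the 3 ABT-263-treated mice.

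Binding protein transcripts exceeded ligand transcripts many times over in every mouse. The ratio of summed TPM was 69.2, 110.0, 52.2 and 68.7 after DMSO and 128.6, 96.9 and 131 after ABT-263, with mouse 481 above mouse 477, so the groups overlapped. In CPM the ratio was 13.8 to 31.1 after DMSO and 22.0 to 26.7 after ABT-263. The difference of means was 3.73 in CPM and 43.8 in TPM. Because the ratio itself is lower in CPM in every mouse, these differences are on unlike scales. Without Igfbp7 the ratio in TPM was 46.0 to 97.3 after DMSO and 50.3 to 62.1 after ABT-263. Igf1r made up 34.8%, 38.9%, 33.6% and 36.1% of the summed receptor TPM after DMSO. After ABT-263 its share was 25.1%, 27.2% and 17.4%, with no overlap. This share was not tested, and neither receptor gene passed the test. In CPM, the groups did not overlap for 37.1% of all genes tested. Summed receptor TPM itself overlapped, at 13.8 to 19.3 after DMSO and 18.5 to 25.2 after ABT-263. Summed ligand TPM was 7.96 to 15.6 and 8.66 to 12.0.

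Of 73 other genes of the pathway, 67 were tested, 14 were higher and 4 lower after ABT-263 at the same threshold, or 26.9% of those tested beside 24.2% of all genes. Igfbp1, Igfbpl1, Insrr, Igf2bp3, Igf2os and Ins2 had too few counts to be tested. With each mouse left out in turn, 5 of the 18 called genes (Adam12, Foxo1, Pik3ca, Akt1 and Jak2) passed in every fit. The remaining 13 lost the call in at least 1 fit, 12 of them without ABT-263-treated mouse 478, 9 without mouse 476 and 10 without DMSO-treated mouse 482. Without DMSO-treated mice 480, 481 and 483, 5, 6 and 7 lost it, and without ABT-263-treated mouse 477, 2 did. The share of all genes called, 24.2% with every mouse, was 9.39%, 12.0% and 10.3% without mice 478, 476 and 482. It was 23.5%, 16.1% and 11.7% without mice 480, 481 and 483, and 21.6% without mouse 477. Lost calls are therefore not a trait of these pathway genes alone.

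**Figure D4:**
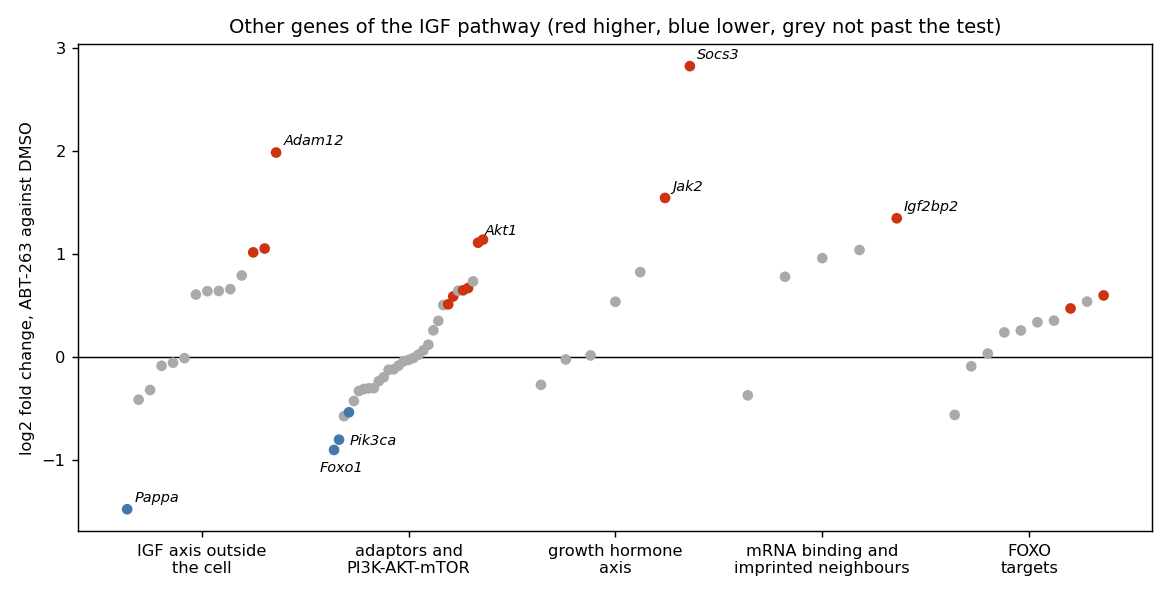
Log2 fold change, ABT-263 against DMSO, of the 67 tested pathway genes in their 5 lists, ordered by value within each list (red higher, blue lower, grey not past an adjusted p of 0.05). Called genes lie on both sides of 0 in the list outside the cell and in the adaptor and PI3K-AKT-mTOR list, and above 0 in the other lists.

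Outside the cell, 3 genes were higher and 1 lower of 14 tested, with a median log2 fold change of 0.62. Pappa, which encodes the protease that cleaves IGFBP4, was at 1.96, 4.26, 2.36 and 3.74 CPM after DMSO and at 1.00, 1.34 and 0.967 CPM after ABT-263. It fell by 1.48 on the log2 scale (SE 0.36, edgeR adjusted p = 0.0236), and lost the call without any one of mice 481, 483, 476 and 478, with adjusted p-values up to 0.0804 from edgeR. Adam12, a metalloprotease that cleaves IGFBP3 and IGFBP5, was at 5.28, 1.73, 3.18 and 3.53 CPM after DMSO and at 17.2, 11.5 and 12.2 CPM after ABT-263. Its log2 fold change was 1.99 (SE 0.35, edgeR adjusted p = 0.00980), and the groups did not overlap. The metalloprotease gene Adamts1 (log2 fold change 1.02, edgeR adjusted p = 0.0283) and Lrp1, an endocytic receptor that binds IGFBP3 (1.05, adjusted p = 0.0222), were higher too. Stc2, an inhibitor of the PAPP-A protease (log2 fold change 0.66, edgeR adjusted p = 0.0659), and Cd93, an endothelial receptor that binds IGFBP7 (0.79, adjusted p = 0.0854), did not pass. Cd93 passed in only 1 of the 7 fits that left out a mouse, that without DMSO-treated mouse 480 (0.99, edgeR adjusted p = 0.0494).

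Among 31 receptor adaptors and PI3K-AKT-mTOR genes, 6 were higher and 3 lower, and the median log2 fold change was -0.03. Foxo1, a transcription factor that AKT keeps out of the nucleus, was at 72.8 to 83.1 CPM after DMSO and at 39.8 to 45.6 CPM after ABT-263. It fell by 0.90 on the log2 scale (SE 0.12, edgeR adjusted p = 0.00622). Pik3ca, a catalytic subunit of PI3K, was at 85.7 to 94.0 CPM and at 46.9 to 57.2 CPM, and fell by 0.80 (SE 0.12, edgeR adjusted p = 0.00713). Akt1, the kinase downstream of PI3K, was at 60.3 to 91.8 CPM and at 148 to 161 CPM, a log2 fold change of 1.11 (SE 0.17, edgeR adjusted p = 0.00733). In CPM the groups did not overlap for 15 of the 31 genes, these 3 among them, beside 37.1% of all genes tested. Also higher were the adaptor Shc1 (log2 fold change 0.67, edgeR adjusted p = 0.0138), the phosphatase Ptpn11 (0.59, adjusted p = 0.0154), the mTOR activator Rheb (1.14, adjusted p = 0.0161) and Mtor (0.51, adjusted p = 0.0469). Mtor lost the call in 6 of the 7 fits that left out a mouse, without the low-count filter (edgeR adjusted p = 0.0565), with protein-coding genes only (0.0613) and with thinned counts (0.0701). Gsk3b, a kinase that AKT inhibits, was lower (-0.54, edgeR adjusted p = 0.0174). Eif4ebp1 (0.73, edgeR adjusted p = 0.0652) and Pdpk1 (-0.33, adjusted p = 0.0932) did not pass. Eif4ebp1 passed in only 1 of the 7 fits that left out a mouse, that without ABT-263-treated mouse 477 (0.94, edgeR adjusted p = 0.0459). Insr, the insulin receptor gene, had a log2 fold change of -0.01 (95% interval -0.39 to 0.37, edgeR adjusted p = 0.967).

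In the growth hormone axis, which drives Igf1 expression in many tissues, 2 of 7 genes were higher and 0 lower (median log2 fold change 0.54). Jak2, the kinase of the growth hormone receptor and of many cytokine receptors, was at 16.6 CPM or less after DMSO and at 68.5, 25.7 and 34.9 CPM after ABT-263 (log2 fold change 1.55, SE 0.31, edgeR adjusted p = 0.0138). Socs3, an inhibitor of cytokine signaling, was at 13.3 to 36.3 CPM after DMSO and at 329, 45.6 and 55.9 CPM after ABT-263 (log2 fold change 2.83, edgeR adjusted p = 0.0333). Without mouse 476 the log2 fold change of Socs3 was 1.33 (edgeR adjusted p = 0.0779), and the call was also lost without DMSO-treated mice 480, 481 or 482, and without the low-count filter (edgeR adjusted p = 0.120). Stat5a (0.54, edgeR adjusted p = 0.0562) and the receptor gene Ghr (0.82, adjusted p = 0.113) did not pass, and both did without ABT-263-treated mouse 477 (0.72, adjusted p = 0.0277, and 1.19, adjusted p = 0.00995, from edgeR). Each passed in only that 1 of the 7 fits leaving out a mouse. In the other fits the adjusted p from edgeR reached 0.179 for Stat5a and 0.337 for Ghr.

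Of 5 tested genes for proteins that bind Igf2 mRNA and imprinted neighbours of the ligand and receptor genes, 1 was higher and 0 lower (median 0.96). Igf2bp2, an mRNA-binding protein, was at 1.56 to 3.08 CPM after DMSO and at 4.16 to 9.40 CPM after ABT-263 (log2 fold change 1.35, SE 0.34, edgeR adjusted p = 0.0279), and lost the call in 5 of the 7 fits that left out a mouse. Slc22a3, a transporter gene near Igf2r, had a log2 fold change of 0.96 (edgeR adjusted p = 0.276). Among 10 FOXO target genes, 2 were higher and 0 lower (median 0.30). Txnip had a log2 fold change of 0.60 (edgeR adjusted p = 0.0434) and Ccng2 one of 0.47 (adjusted p = 0.0441), and each lost the call with trends on gene length and GC content removed (0.45, adjusted p = 0.101, and 0.30, adjusted p = 0.113, from edgeR). With a mouse left out, Txnip lost it in 5 and Ccng2 in 7 of the 7 fits. Both lost it with protein-coding genes only (edgeR adjusted p = 0.0556 and 0.0577), and Ccng2 without the low-count filter (edgeR adjusted p = 0.0542). Sesn1 (0.35, edgeR adjusted p = 0.0723) and Sesn3 (-0.56, adjusted p = 0.142) did not pass.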

How the data were processed

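Skin RNA from 7 mice (4 DMSO, 3 ABT-263, grouped by the sample titles) was sequenced. The authors aligned reads to mm10 with STAR 2.7.9a and used featureCounts (Subread 1.6.2) to assign properly paired, uniquely mapped and strand-matched reads to Ensembl genes, leaving out mitochondrial ones. These deposited counts are raw. The other deposited table, in log2 units after the variance-stabilizing transformation of DESeq2 1.23.10, served as an alternative. Symbols, positions and exon lengths came from GENCODE M21 (GRCm38, equal to mm10). It held 55190 of 55450 identifiers and differs from the annotation that the authors name.

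Analyses used R 4.3.3 with edgeR 4.0.16 (TMM, filterByExpr, robust quasi-likelihood fit), and exact permutation tests over the 35 splits of the mice. TPM was computed from the counts. On simulated data with known fold changes, edgeR and limma missed many of the changed genes. The DESeq2 Wald test, run without its filters, found more of them but made false calls well above its threshold. Far fewer genes were changed in the simulation than were called in these data. Its rates of missed and false calls therefore may not carry over. Alternatives were the DESeq2 1.42.0 Wald test without its filters, its size factors, other count filters, protein-coding genes only, length and GC trends removed (mgcv 1.9.3), thinned counts, limma 3.58.1 on the variance-stabilized values, other gene lengths and each mouse left out. The unshared exon length was added after seeing the data. The members and lists were chosen with earlier results of these data known. Named genes are all members, called pathway genes, and the 2 uncalled genes with the smallest p in each list. By this rule 1 further pathway gene would be named, which is counted but not reported here. Insr, Cdh5, Gm49394 and Igf2os are named besides, picked with their values known. The promoter sequences are from RefSeq.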

Additional observations from a re-analysis of the deposited data

Results flagged for a closer look

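Among the 4 DMSO-treated mice, Dixon's ratio, the gap of an extreme mouse to its neighbour over the whole range, passed its 95% critical value in 2 of 22 measures of the IGF genes, where chance gives 1.1. Mouse 480 had the highest Igfbp2, with a ratio of 0.898 on log2(CPM + 0.5), and without that mouse Igfbp2 still passed the edgeR test (log2 fold change -1.14, adjusted p = 0.0346). Mouse 480 also had the lowest Igf1r, with a ratio of 0.869, and without it the log2 fold change of Igf1r was -0.50 (adjusted p = 0.077 from edgeR).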

How the results depend on the processing

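None of the 37 fold changes examined changed sign under any of the alternatives run, 554 comparisons in all. Apart from the members, these genes were named for passing the test or for the smallest p among those that did not. The alternatives also use the same mice, so stable signs are not independent evidence. The count of members that were lower was 2 rather than 1 with the DESeq2 Wald test and 2 with length and GC trends removed, Igfbp5 being the added gene in both. With each mouse left out in turn, 1 to 2 members were higher and 1 to 2 lower, 4 to 17 pathway genes were higher and 2 to 5 lower, and 850 to 2286 of all genes were higher and 771 to 2104 lower. Over all genes, the fewest higher calls came when DMSO-treated mouse 482 was absent and the fewest lower calls when ABT-263-treated mouse 478 was. In CPM, which is not divided by length, the difference in the Igfbp7 share of the binding protein sum was 25.6 percentage points rather than 39.4. The difference in the binding protein to ligand ratio was 3.73 in CPM and 43.8 in TPM (merged exons of Igf1 span 9904 bases and those of Igfbp7 1209). These differences are on unlike scales, because the ratio itself is lower in CPM in every mouse. Without Igfbp7, the difference in that ratio ran from -16.1 to 0.97 with a mouse left out. Thinning counts to the smallest library left every member's call as it was. Mouse numbers differ between treatments, and no paired analysis was possible because the groups share no replicate number. Igf2 counts are too low to show a difference at this depth.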

Other observations

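Igfbp1, the binding protein gene that insulin represses in liver, had 0 read pairs in all 7 libraries, as did Ins2. A count of 0 allows up to 3 counts, or 0.0644 to 0.154 CPM per library, from counting error alone.

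Igf1 was also set against the summed fibroblast markers, a ratio chosen after the values were seen and not tested. For each 1000 CPM of these markers, Igf1 was at 10.1, 8.57, 17.8 and 12.0 CPM in DMSO-treated mice 480 to 483 and at 7.01, 5.97 and 5.28 CPM in ABT-263-treated mice 476 to 478. The groups did not overlap in this ratio, whereas they did in Igf1 itself, which did not pass the test (edgeR adjusted p = 0.275). Over all genes tested, the groups did not overlap in CPM for 37.1%. The marker sum includes the collagen genes Col1a1 and Col1a2, and the authors report collagen synthesis genes as upregulated after ABT-263. That sum is therefore not a count of fibroblasts. Fibroblast markers moved unevenly, with log2 fold changes of 1.72 for Pdgfra (adjusted p = 0.0156 from edgeR) and 0.48 for Dcn (adjusted p = 0.191), so the ratio depends on which markers are summed.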
